A study of Mus musculus with 2 samples.

Results

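The genes of the bZIP transcription factors, a superfamily that includes AP-1, were examined for binding of PPARγ in mouse TH2 cells. The set holds 44 genes of the FOS, JUN, BATF, ATF, CREB, MAF, BACH, NFE2, PAR and CEBP families, out of 21911 protein-coding genes in the annotation. They were chosen by name, with earlier results of these data known. A peak was counted for a gene when its centre lay closer to a transcription start site (TSS) of that gene than to one of any other protein-coding gene, and within 100 kb of it. By that rule 18 of the 2537 deposited peaks belonged to 11 of the 44 genes.

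TH2 cells were grown from naive CD4+ T lymphocytes of C57BL/6J mice, given a retrovirus for TY1-tagged PPARγ on days 1 and 2, and collected on day 4. Chromatin precipitated with an antibody against the TY1 tag gave 1 ChIP library, which was compared with 1 input library made without antibody from cells carrying the same transgene. The map therefore shows the introduced, tagged receptor, and no cells without the transgene were part of the comparison. Expression was not measured, so the TH2 identity of the cells could not be checked against marker genes. The ChIP library had 10229438 unique tags, and 54617 of them fell inside peaks, a mean of 21.5 per peak. The deposited rows give a position of 173 bp for each peak and no strength, so each peak counted once. With 1 library there is no replicate error, no test was made, and the intervals given are exact 95% binomial (Clopper-Pearson) intervals that cover counting error only.

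bZIP proteins bind DNA as dimers through a basic region next to a leucine zipper, and the pairing decides the sequence that is read. FOS with JUN, and BATF with JUN, bind the AP-1 element TGACTCA or TGAGTCA, CREB and ATF dimers bind the cAMP response element TGACGTCA, and small MAF proteins pair with NFE2 and BACH proteins. In helper T cells AP-1 carries the signal of the T cell receptor to cytokine genes, and c-MAF is known as an activator of the IL-4 gene. PPARγ is a nuclear receptor that binds with RXR to DR1, a direct repeat of the core AGGTCA with a spacer of 1 bp. The question here was which bZIP genes carried PPARγ peaks, and whether those peaks held DR1, AP-1 or neither.

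The sequences below are the matches on which the account of DR1 and AP-1 rests, read from the GRCm38 reference (mm10) with 8 bases on each side. DR1 was allowed 2 mismatches among the 12 bases of its consensus that are not the spacer, and AP-1 none, on both strands, in 200 bp around each peak centre. A DR1 match can contain the single core AGGTCA, and the MAF and composite elements named further on include the AP-1 site in their consensus, so matches can overlap. Absence of a match says only that these letters are not in the window. Capitals mark the match, DR1 sequences are shown in the direction of the repeat, and AP-1 sequences are shown on the plus strand.
Mafg DR1, chr11:120628148-120628176, plus strand: acagccacAGGTCAAAGGTCAccagaagc
Jun DR1, chr4:95068737-95068765, plus strand: taccatgtAGGGGAAAGGTCAagactatg
Bach2 DR1, chr4:32246888-32246916, minus strand: ctcgaatgGGGACAAAGGTCActactttc
Maff DR1, chr15:79354734-79354762, minus strand: ctcctaccAGGTCAGGGGTCTagcagctc
Maff AP-1, chr15:79354793-79354815, plus strand: ccttggccTGAGTCAcactgaga
Creb1 AP-1, chr1:64549573-64549595, plus strand: tttcatatTGACTCAgagttgca
Maf AP-1, chr8:115726372-115726394, plus strand: gaaacatgTGACTCAgcttgttt
Bach2 AP-1, chr4:32376219-32376241, plus strand: cctccagaTGACTCAtccctata

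PPARγ peaks were found at members of 7 of the 8 subfamilies, at 11 of 44 genes in all. That is 25% of the set (interval 13.2 to 40.3), beside 7.67% of all protein-coding genes (1680 of 21911). The set was chosen with earlier results of these data known, and the interval does not cover that choice. Of 9 bZIP genes outside the set, 0 had an assigned peak. MAF genes had peaks at 3 of 4 and FOS and JUN genes at 3 of 7. The subfamily of BATF, JDP2 and ATF3 had 1 of 5, CREB and ATF genes 1 of 6, NFE2 and BACH genes 1 of 6, PAR and NFIL3 genes 1 of 4, and CEBP genes 1 of 6. Among 6 genes of the endoplasmic reticulum (ER) stress and amino acid response, namely Atf4, Atf5, Atf6, Creb3, Creb3l2 and Xbp1, 0 had an assigned peak. With 4 to 7 genes each, these intervals overlap: that of the MAF genes ran from 19.4 to 99.4% and that of the ER stress genes from 0 to 45.9%. When noncoding genes could also claim a peak, Cebpb, Fos, Jun and Nfil3 lost theirs. The 7 members that remained were 15.9% of the set, beside 4.82% of all protein-coding genes under the same rule. Within 10 kb of a TSS 4 members had a peak, namely Fosl2, Maff, Mafg and Bach2 (9.09%, beside 3.37% of all protein-coding genes).

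The distance from a TSS to the nearest peak gives a value for every member. Its median was 125 kb over the 44 genes (quartiles 26.1 and 315 kb) and 318 kb over all protein-coding genes (quartiles 108 and 851 kb). The nearest peaks lay at Fosl2 (2.03 kb), Mafg (2.07 kb), Maff (6.66 kb) and Bach2 (7.24 kb). The farthest were those of Cebpd (1137 kb), Crem (929 kb), Atf6 (899 kb) and Bach1 (878 kb), and 6 members had no peak within 500 kb. Crem encodes the cAMP response modulator and Cebpd a CEBP factor of inflammatory responses.

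**Figure D1:**
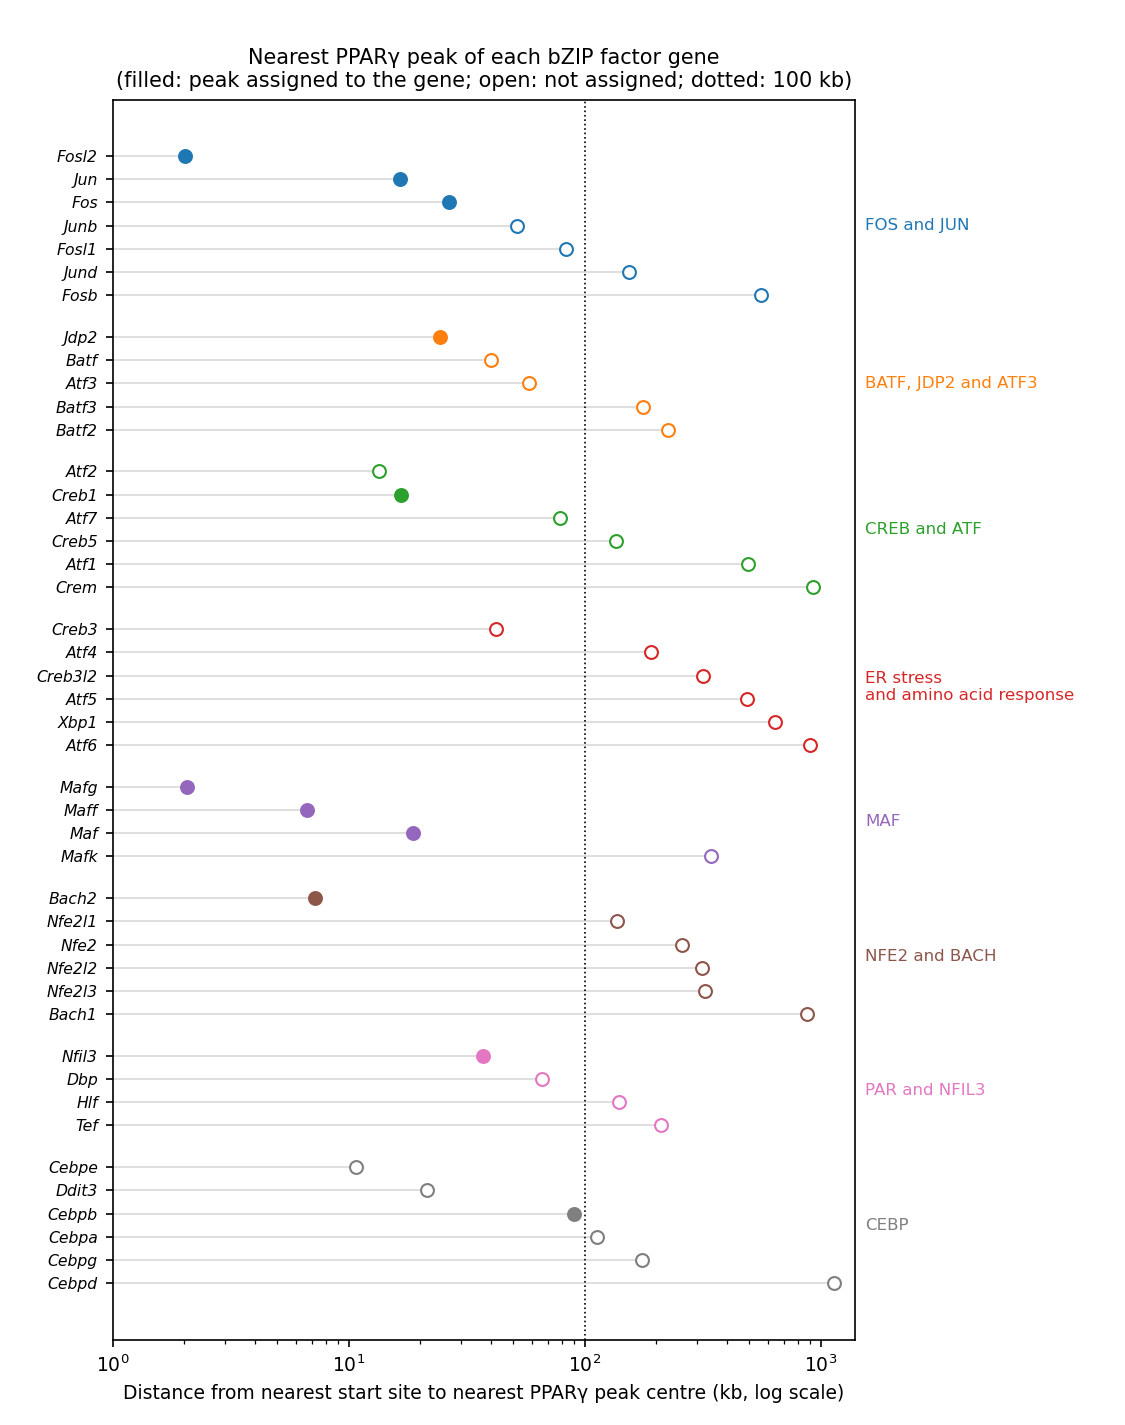
Distance in kb, on a log axis, from the nearest TSS of each of the 44 bZIP genes (rows, grouped by subfamily) to the nearest PPARγ peak centre. Filled points are the 11 genes to which a peak was assigned and open points the other genes; Fosl2 and Mafg lie nearest and Cebpd farthest.

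Genes differ in how much sequence they can draw peaks from, and this moved with the result. The territory of a gene, the sequence nearest to its start sites within 100 kb, had a median of 126 kb in the 11 members with a peak and 61.2 kb in the 33 without. It was 96.8 kb in all genes with a peak and 47.2 kb in all protein-coding genes. Relative to territory, the bZIP genes held 4.50 peaks per Mb (18 peaks in 4.00 Mb), against 1.36 per Mb over all protein-coding genes. Bach2 alone held 5 of these peaks, at 13.5 per Mb, and the other members held 3.59 per Mb. Mafg and Maff had a peak in territories of only 11.1 and 38.1 kb, whereas Creb5, a CREB family gene with the longest territory of the set, 424 kb, had none.

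**Figure D2:**
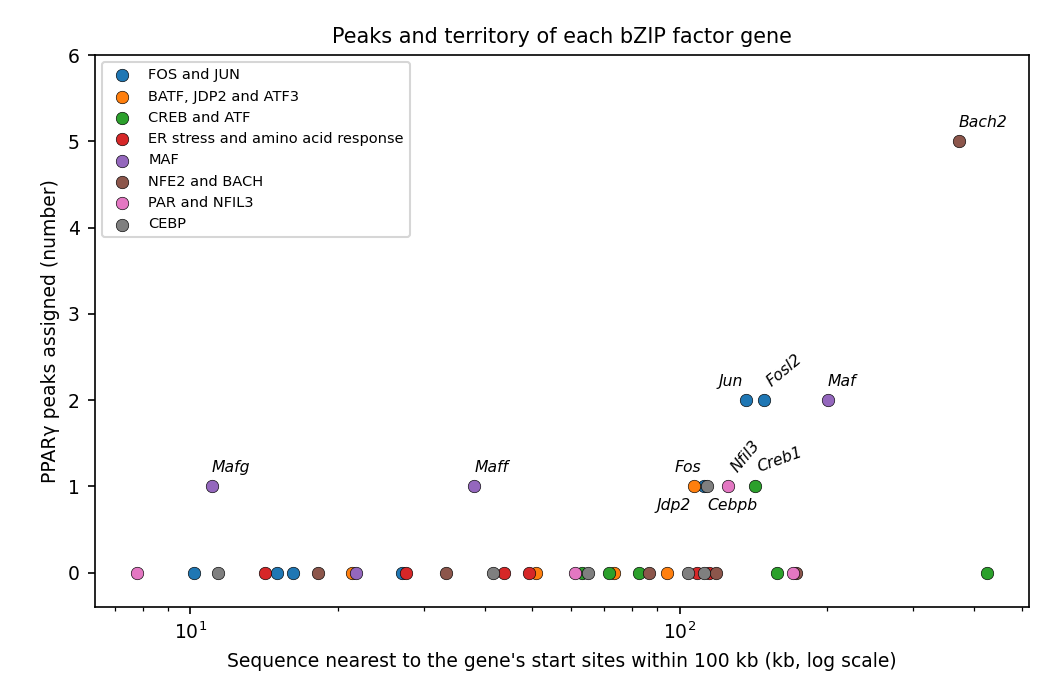
Number of assigned PPARγ peaks (vertical axis) against territory in kb on a log axis for the 44 bZIP genes, coloured by subfamily. Bach2 has 5 peaks in 371 kb, Mafg and Maff have 1 peak each in short territories, and genes without a peak span the whole range.

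Among FOS and JUN genes, the components of classical AP-1, Fosl2, Jun and Fos had 5 peaks, none of which held an AP-1 match. AP-1 matches stood in 17.8% of all assigned peaks, and 5 peaks are too few to set against that share. Fosl2, which encodes the FOS family member FRA-2, had peaks 2.03 kb and 4.10 kb downstream of its TSS (chr5:32137747-32137919 and chr5:32139814-32139986), both in intron 1. The window of the nearer held a single AGGTCA core and a RUNX site (TGTGGTT), and that of the farther a STAT site (TTCNNNGAA). The AGGTCA core and the STAT site run past the edges of the deposited intervals. Jun, the gene of the main FOS partner c-JUN, had an intergenic peak 16.5 kb upstream (chr4:95068685-95068857) with a DR1 match 20 bp from the peak centre. A peak 47.8 kb upstream of Jun (chr4:95099972-95100144), in an intron of the antisense gene Junos, held none of the 15 motifs searched, a scrambled DR1 included. Fos had 1 intergenic peak 26.6 kb upstream (chr12:85447232-85447404), centred in repeat-masked sequence, with a RUNX site and no DR1 match. The remaining members of this subfamily, Fosb, Fosl1, Junb and Jund, had no assigned peak.

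Fos, Jdp2 and Batf lie within 235 kb on chromosome 12. In that stretch extended by 100 kb on each side there were 4 peaks. One belonged to Fos, and Jdp2, which encodes a repressive partner of JUN, had an intron 2 peak 24.5 kb downstream of its TSS (chr12:85624451-85624623). The Jdp2 peak was centred in repeat-masked sequence and held a single AGGTCA core, with 4 mismatches in its best DR1 alignment. The other 2 peaks (chr12:85726892-85727064 and chr12:85730069-85730241) lay 40.3 and 43.5 kb from the TSS of Batf, which encodes the JUN partner that binds with IRF4 in T cells. They were closer to Flvcr2, at 19.6 and 16.4 kb, and were assigned to it. The second of them held an AP-1 match. Batf2, Batf3 and Atf3 had no assigned peak.

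The MAF genes held 4 peaks, of which 3 had an element: 1 with AP-1, 1 with DR1 and 1 with both. Over all assigned peaks 35.3% had at least 1 of the elements. The DR1 match of Mafg and the AP-1 match of Maf run past the deposited intervals. Only the Maff peak held a whole element inside its interval. Mafg, which encodes a small MAF protein, had a peak 2.07 kb downstream of its nearest TSS (chr11:120627991-120628163), in the 3′ UTR in exon 3 of 3 of the longest transcript. Its DR1 match was the exact consensus AGGTCAAAGGTCA, centred 85 bp from the peak centre, so that it runs past the edge of the deposited interval. An exact DR1 occurred in 1 of 18 bZIP gene peaks (5.56%, interval 0.141 to 27.3). It occurred in 24 of the 2106 peaks assigned to other genes (1.14%) and in 1 of 5071 flanking windows (0.0197%). The interval includes the share of the other genes. Flanking windows are 200 bp stretches centred 1 kb to either side of each peak. The next coding gene, Sirt7, had its TSS 3.06 kb from the peak centre, and with a single start per gene the peak was no longer assigned to Mafg.

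Maff, another small MAF gene, had a peak in intron 1 (chr15:79354640-79354812), 6.66 kb downstream of its nearest TSS. It was the only bZIP gene peak with both elements. Its DR1 match lay 22 bp from the centre and its AP-1 match 78 bp, with 46 bases between them. The window also held a match to the MAF recognition element 6 bp from the centre, apart from the AP-1 match, with 2 mismatches. Because both elements stand in a single window, the 200 bases are shown here, with DR1 (first, on the minus strand) and AP-1 in capitals.
Maff peak window, chr15:79354626-79354825, plus strand: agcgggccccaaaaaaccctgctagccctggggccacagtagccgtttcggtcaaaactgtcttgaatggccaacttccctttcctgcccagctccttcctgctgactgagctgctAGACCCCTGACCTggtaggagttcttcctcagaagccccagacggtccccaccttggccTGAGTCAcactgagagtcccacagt

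Maf, which encodes c-MAF, had 2 intergenic peaks. One lay 18.7 kb upstream (chr8:115726382-115726554), with an AP-1 match 85 bp from the centre and a single AGGTCA core at 13.5 bp. That AP-1 match runs past the edge of the deposited interval. The other lay 88.6 kb downstream (chr8:115618364-115618536), centred in repeat-masked sequence, and held none of the 15 motifs. The remaining MAF gene, Mafk, had no peak nearer than 342 kb.

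Bach2, which encodes a repressor that competes for AP-1-like sites and restrains effector differentiation of T cells, had 5 peaks, more than any other bZIP gene. Across all protein-coding genes 1 gene had more peaks and 8 genes had 5 or more. All 5 lay in introns of Bach2, a gene of 347 kb, and spread over 236 kb with 44.4 to 84.9 kb between neighbours. Counted from the 5′ end of the gene they stood at 8.10 kb and 52.5 kb (intron 1), 137 kb (intron 2), and 186 kb and 244 kb (intron 3). The first (chr4:32246821-32246993) held a DR1 match 5 bp from its centre and the single GATA site (AGATAA or TGATAA) of the set. The third (chr4:32376148-32376320) held an AP-1 match 4 bp from its centre, and the fifth (chr4:32483033-32483205) held 2 AP-1 matches at 2 and 23 bp. The peaks at 52.5 and 186 kb held neither element. Peaks with 2 or more AP-1 matches made up 34 of all 2124 assigned peaks (1.60%), and the Bach2 window is shown for its pair, which is separated by 14 bases.
Bach2 peak window, chr4:32483019-32483218, plus strand: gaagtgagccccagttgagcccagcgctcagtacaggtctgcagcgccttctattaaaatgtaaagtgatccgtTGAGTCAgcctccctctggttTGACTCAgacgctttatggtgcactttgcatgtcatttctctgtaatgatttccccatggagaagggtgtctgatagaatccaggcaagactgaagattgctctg

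The related genes Bach1, Nfe2, Nfe2l1, Nfe2l2 and Nfe2l3 had no assigned peak. Nfe2l2 encodes NRF2, the activator of antioxidant genes, and its nearest peak lay 314 kb away. Nfe2l3 was the closest coding gene to 3 peaks at 324 to 372 kb, of which 2 held DR1 and which fell outside the 100 kb limit.

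The other 3 subfamilies with a peak had 1 each. Creb1, the gene of the cAMP-responsive activator CREB, had a peak in intron 1, 16.6 kb downstream of its nearest TSS (chr1:64549451-64549623), with an AP-1 match 47 bp from the centre. That match was part of a match to the spaced composite element of AP-1 and IRF, in which 1 mismatch was allowed, and a RUNX site lay in the same window. Nfil3, which encodes a repressor that acts on cytokine genes in T cells, had an intergenic peak 37.1 kb upstream (chr13:53018105-53018277) with a single AGGTCA core. Cebpb, the gene of C/EBPβ, had a peak 90.0 kb downstream (chr2:167778865-167779037), inside the noncoding gene Gm14321, and this peak held none of the 15 motifs. Its centre falls in an exon of 1 annotated form of Gm14321 and in intron 1 of the longest transcript, and it is counted here as exonic. It was the assigned peak closest to the 100 kb limit. The nearest one beyond it lay 136 kb from Jun.

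**Figure D3:**
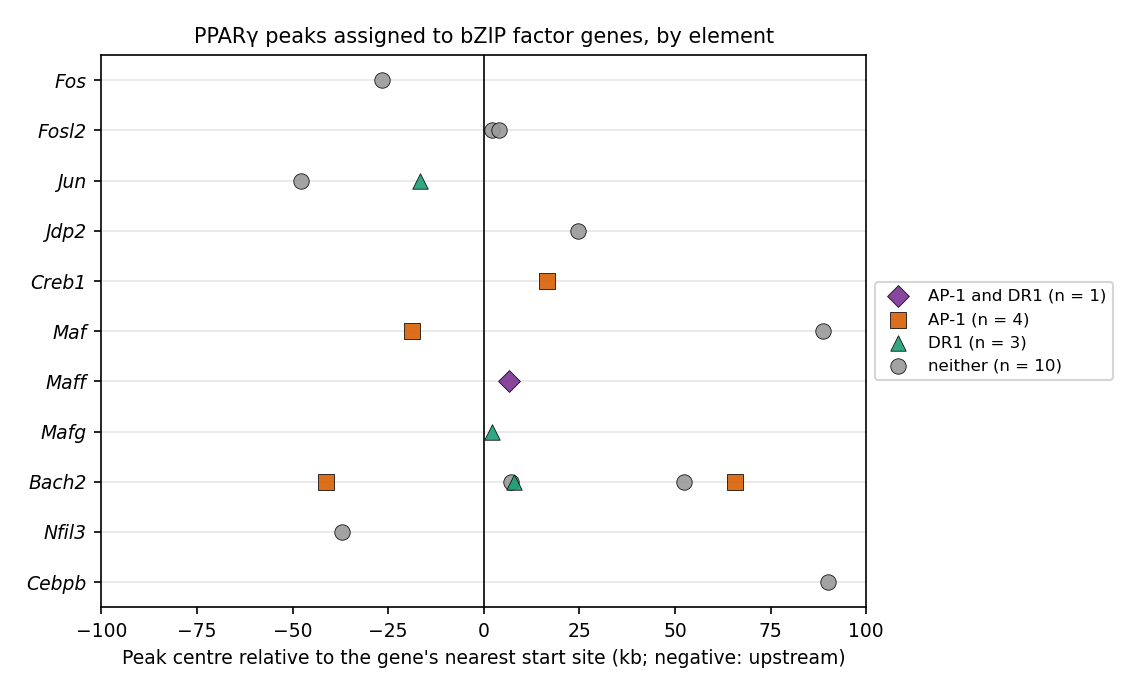
Position of the 18 assigned peaks relative to the nearest TSS of each of the 11 bZIP genes (rows), in kb, negative values upstream. Symbols mark AP-1 and DR1 matches: 1 peak holds both, 4 hold AP-1, 3 hold DR1 and 10 hold neither.

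Over the whole set, AP-1 matches occurred in 5 of 18 bZIP gene peaks, or 27.8% (interval 9.69 to 53.5), beside 17.7% of the 2106 peaks of other genes (16.1 to 19.4). The share over all assigned peaks was 17.8%. DR1 matches occurred in 4 of 18, or 22.2% (6.41 to 47.6), beside 20.6% of the peaks of other genes (18.9 to 22.4) and 20.6% of all assigned peaks. Both intervals include the share of the other genes, so no difference was detectable with 18 peaks. The intervals treat peaks of the same gene as independent. Without Bach2, AP-1 and DR1 each occurred in 3 of 13 peaks (23.1%). Flanking windows held AP-1 in 3.65% and DR1 in 3.39%. In the 36 flanking windows of the bZIP gene peaks themselves, 2 held AP-1 and 0 held DR1, which leaves a DR1 share of up to 9.74% within the interval. A scrambled DR1 occurred in 0 of 18 bZIP gene peaks, 2.99% of the peaks of other genes and 1.99% of flanking windows.

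By subfamily, AP-1 matches lay in peaks of MAF (2 of 4), NFE2 and BACH (2 of 5) and CREB and ATF genes (1 of 1), and in 0 of 5 peaks of FOS and JUN genes. DR1 matches lay in peaks of MAF (2 of 4), FOS and JUN (1 of 5) and NFE2 and BACH genes (1 of 5). The peaks of Jdp2, Nfil3 and Cebpb held neither. With at most 5 peaks each, the subfamilies are too small to set against the shares of all assigned peaks. In total 8 of 18 peaks held at least 1 of the elements (44.4%, interval 21.5 to 69.2), beside 35.2% of the peaks of other genes (33.2 to 37.3). The 3 peaks centred in repeats, at Fos, Jdp2 and Maf, held neither, and 3 peaks are too few to set against the 35.2% of repeat-centred peaks of other genes that held at least 1.

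**Figure D4:**
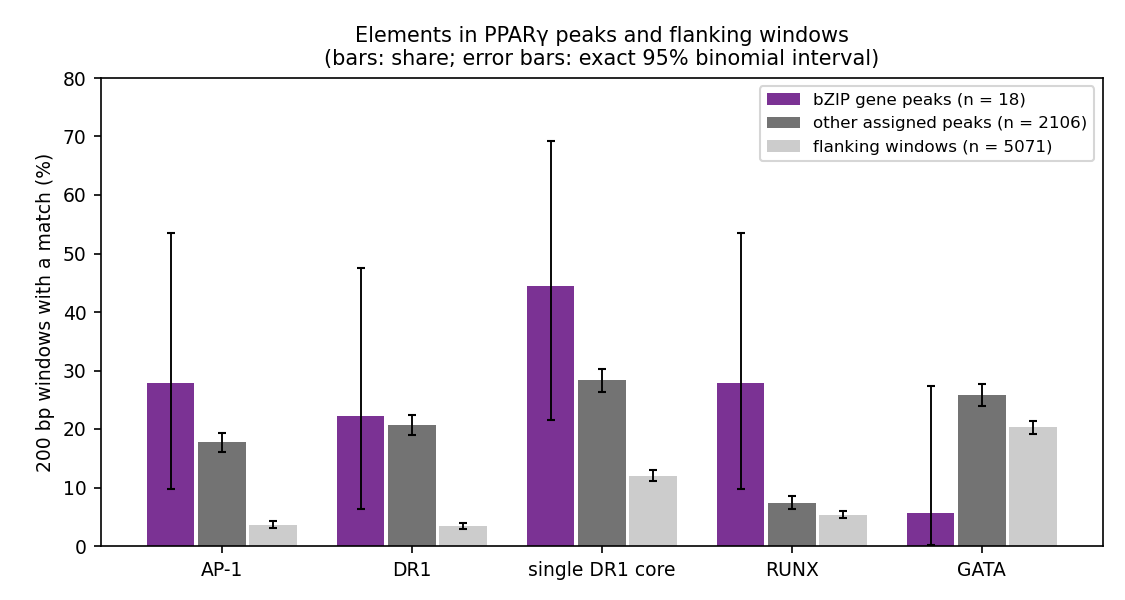
Share of 200 bp windows with a match, for 18 bZIP gene peaks, 2106 peaks assigned to other genes and 5071 flanking windows, with exact 95% binomial intervals as error bars. The bZIP gene intervals are wide and, for AP-1, DR1, the single AGGTCA core and GATA, include the share of the other genes' peaks.

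The 6 AP-1 matches lay 2 to 85 bp from the peak centre and the 4 DR1 matches 5 to 85 bp, in windows that reach 100 bp to each side. The AP-1 matches were a median of 35 bp from the centre and the DR1 matches 21 bp, beside 47 and 33.5 bp over all assigned peaks. In 3 of the 4 DR1 matches, at Mafg, Jun and Bach2, the spacer was adenine and the downstream core was exactly AGGTCA. Among the peaks of other genes with DR1, the spacer was adenine in 52.0% and the downstream core exact in 35.6%. The upstream core was exact in 2 of the 4 matches, beside 29.1%. These 4 DR1 and 6 AP-1 matches are too few to set against the distances and shares of other peaks. Counted from 1 at the 5′ end of the consensus, the Jun match differed by T4G and C5G and the Bach2 match by A1G and T4A, all in the upstream core. The Maff match differed by A8G and A13T, both in the downstream core.

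When the best DR1 alignment of each window was taken whatever its mismatches, 1 bZIP gene peak had 0, 3 had 2, 7 had 3 and 7 had 4, with a median of 3. Peaks of other genes had a median of 3.5, all assigned peaks of 3 and flanking windows of 4. At most 3 mismatches were found in 61.1% of bZIP gene peaks (interval 35.7 to 82.7), beside 50.1% of all assigned peaks. That interval includes the share of all assigned peaks, so no difference was detectable. Exactly 5 mismatches occurred in 0 of 18 bZIP gene peaks (interval 0 to 18.5%), in 13.5% of the peaks of other genes and in 31.3% of flanking windows. The interval includes the share of the other genes. No bZIP gene peak had more than 5.

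**Figure D5:**
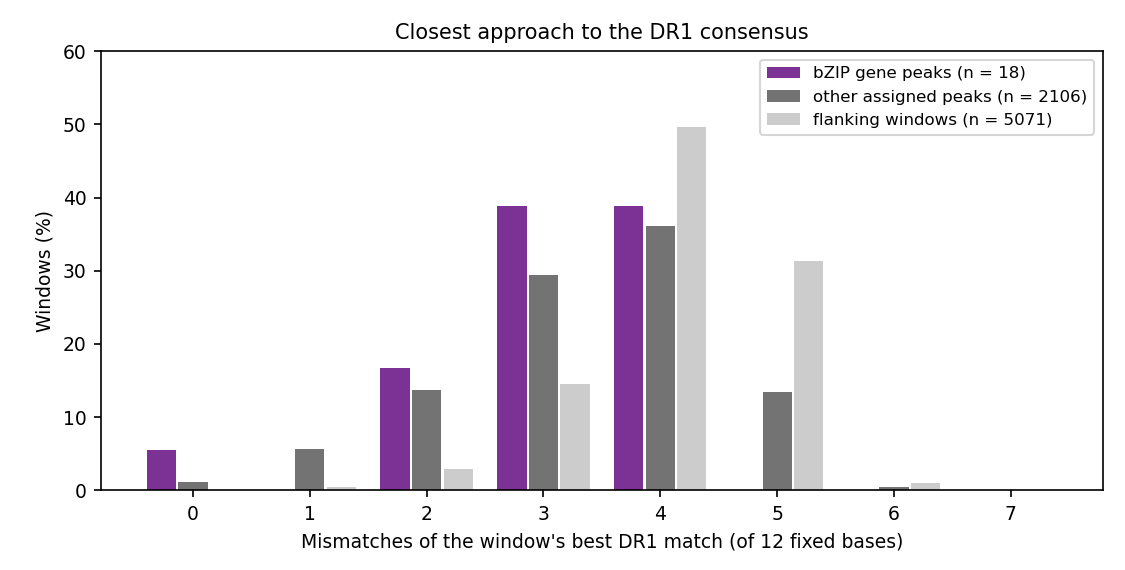
Percent of windows by the number of mismatches of their best DR1 match among 12 fixed bases, for 18 bZIP gene peaks, 2106 peaks of other genes and 5071 flanking windows. Medians are 3 for bZIP gene peaks, 3.5 for peaks of other genes, 3 for all assigned peaks and 4 for flanking windows. The value 4 is the most frequent in flanking windows (49.7%) and in peaks of other genes (36.1%). In bZIP gene peaks 3 and 4 are equally frequent (38.9% each).

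Of the other sites searched, a single AGGTCA core stood in 8 of 18 bZIP gene peaks, or 44.4% (21.5 to 69.2), beside 28.3% of the peaks of other genes, 28.4% of all assigned peaks and 12% of flanking windows. RUNX sites stood in 5 of 18, or 27.8% (9.69 to 53.5), beside 7.31% of the peaks of other genes, 7.49% of all assigned peaks and 5.38% of flanking windows. These 5 were peaks of Fos, Fosl2, Creb1, Mafg and Bach2. GATA sites stood in 1 of 18, or 5.56% (0.141 to 27.3), beside 25.8% of the peaks of other genes, 25.6% of all assigned peaks and 20.3% of flanking windows. The cAMP response element was in 0 of 18 and in 0.0950% of the peaks of other genes, and CEBP sites (TTGCNNAA) were in 0 of 18 and 9.73%. STAT sites were in 2 of 18 (11.1%) and 9.45%. The D-box of PAR factors (TTATGTAA or TTACGTAA), the antioxidant response element (TGACNNNGCA) and the ETS site (CCGGAAGT) were in 0 of 18, beside 0.95%, 2.99% and 0.285% of the peaks of other genes. The spaced composite element of AP-1 and IRF was in 2 of 18 (11.1%) and 4.08%, the adjacent one in 0 of 18 and 5.70%, and the MAF recognition element in 1 of 18 (5.56%) and 1.66%. RUNX and GATA were singled out after the shares of all 15 motifs were seen, and these differences were not tested.

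None of the 18 bZIP gene peaks was centred in a promoter. Promoters (1000 bp before a TSS to 100 bp after it) held 0 of 18 (interval 0 to 18.5%), beside 9.12% of the peaks of other genes. Introns held 11 (61.1%, beside 53.3%), intergenic sequence 5 (27.8%, beside 33.8%) and exons 2 (11.1%, interval 1.38 to 34.7, beside 3.85%). With 18 peaks no difference in these location shares was detectable. The median distance to the TSS was 21.6 kb for bZIP genes (quartiles 7.42 and 46.2 kb) and 16.4 kb for other genes (4.97 and 37.2 kb). The 18 windows had a median GC content of 46.0%, beside 43.5% in other genes' peaks. More than 1 peak was found at 4 of the 11 genes, Fosl2, Jun, Maf and Bach2, beside 19.7% of all genes with a peak.

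The 33 members without an assigned peak had their nearest peak at 10.8 to 1137 kb, with a median of 178 kb. In the ER stress group these distances were 192 kb for Atf4, 318 kb for Creb3l2, 489 kb for Atf5 and 639 kb for Xbp1, which encodes a factor of the unfolded protein response. For the PAR genes Hlf and Tef, known for circadian output in the liver, they were 140 and 211 kb. For Cebpa and Cebpg they were 113 and 176 kb, and for Jund, Batf3 and Atf1 155, 178 and 493 kb. The nearest peaks of Creb5 and Nfe2l1 lay at 137 kb, that of Batf2 at 226 kb, that of Nfe2 at 260 kb and that of Fosb at 561 kb. None of these distances came within the 100 kb limit.

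Of these 33, 10 members had a peak within 100 kb that stood closer to another gene. The nearest were those of Cebpe (10.8 kb, assigned to Gm29776), Atf2 (13.4 kb, Atp5g3) and Ddit3 (21.6 kb, in the promoter of Mars). Ddit3 encodes the stress factor CHOP, and a second peak at 35.1 kb, assigned to Arhgap9, held DR1. Those of Batf, Creb3 and Junb lay at 40.3, 42.1 and 51.8 kb, and those of Atf3, Dbp, Atf7 and Fosl1 at 57.9, 66.1, 78.7 and 83.1 kb. Of the 14 peaks concerned, 5 held AP-1 and 2 held DR1, beside 17.8% and 20.6% of all assigned peaks. Among the 14, 1 is the Jdp2 peak, which also lies within 100 kb of Batf and is already counted in the 18. Counting every gene within reach rather than the nearest, 21 of 44 bZIP genes (47.7%) and 23.5% of all protein-coding genes had a peak within 100 kb.

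The wider AP-1 network was covered by lists that name its other parts. The lists were chosen with earlier results of these data known, and their intervals do not cover that choice. Territory was not taken into account for them. Over all protein-coding genes the share with an assigned peak was 7.67%. Of 9 bZIP genes outside the set, such as Atf6b, 0 had one (interval 0 to 33.6%). Of 16 MAP kinase and MAP kinase kinase genes, whose products act upstream of AP-1, 3 had 1 (18.8%, interval 4.05 to 45.6). Among them were Map2k6, with a peak in its promoter at 0.236 kb, and Mapk14, with an intron peak at 5.79 kb. Of 13 genes for factors that bind beside AP-1 in T cells, 8 had a peak (61.5%, 31.6 to 86.1). They were Ets1 and Runx1 with 4 peaks each, Irf4 with 2, and Irf8, Nfatc1, Nfatc2, Nfatc3 and Gata3 with 1 each. Of their 15 peaks 2 held AP-1 and 2 held DR1, beside 17.8% and 20.6% of all assigned peaks. Of 8 targets of NRF2 and BACH1, among them the heme oxygenase gene Hmox1, 0 had a peak (interval 0 to 36.9%).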

How the data were processed

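The submitters' processing notes and the series text name Bowtie2 for alignment to mm10 and HOMER for peak finding, on tags with a unique position; their versions are not given in the sources used here. As recorded per the file headers, 1 ChIP library was called against 1 input library, with fragments of 172 bp, a false discovery rate of 0.001 (8 tags), and a 4-fold minimum over both input and a local region of 10000 bp. Sequence without unique alignments cannot yield peaks. The score column that the authors deposited holds 1 in each row and ranks no peak. The input values themselves were not analysed here.

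Peaks were assigned with the GENCODE vM21 basic annotation, and sequence came from the GRCm38.p6 reference, the assembly that mm10 names. All 44 symbols matched. Of the flanking windows, 3 with undetermined bases were left out. Members, subfamilies, motifs and lists were chosen with earlier results of these data known. Named are all members, and the listed genes with a peak, apart from 1 that is not reported here. The motif search and the assignment were tested on simulated data. Alternatives covered the assignment, annotation, window and mismatches. Python 3.11.15, numpy 2.4.6, pandas 2.3.3, scipy 1.17.1, pysam 0.24.0 and matplotlib 3.10.9 were used.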

Additional observations from a re-analysis of the deposited data

How the results depend on the processing

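No paired analysis was possible because there is 1 ChIP library. No replicate could be left out for the same reason. The count of 11 members with a peak was 4 within 10 kb, 7 with noncoding genes as rivals, 21 with every gene within 100 kb, and 6 and 7 from the first 1268 rows of the file and the remaining rows. The share of all protein-coding genes called, 7.67%, moved with it, to 3.37%, 4.82%, 23.5%, 4.32% and 4.19% in the same order. The 7 lost within 10 kb were Cebpb, Creb1, Fos, Jdp2, Jun, Maf and Nfil3; noncoding rivals took Cebpb, Fos, Jun and Nfil3; a single start per gene lost Cebpb and Mafg. The number of peaks, 18, was 6 within 10 kb, 9 with noncoding rivals, 31 with every gene, and 6 from the first rows. Of the 7 subfamilies with a peak 3 were left within 10 kb, and of the 4 with AP-1 or DR1 there were 2 within 10 kb and 8 with every gene. The DR1 share of 22.2% was 50.0% within 10 kb (3 of 6 peaks, interval 11.8 to 88.2). It was 5.56% with 1 mismatch and 61.1% with 3 mismatches, beside 6.83% and 50.1% of all assigned peaks. The AP-1 share of 27.8% was 16.7% within 10 kb (1 of 6 peaks, interval 0.421 to 64.1). It was 44.4% with noncoding rivals (4 of 9 peaks, interval 13.7 to 78.8). With 1 mismatch allowed it was 61.1%, beside 65.5% of all assigned peaks. The shares within 10 kb and with noncoding rivals have no share over all peaks under the same rule beside them, so they show no enrichment. The comprehensive annotation and the set without Bach2 were added after the data were seen and moved none of the values recomputed with them by more than 1.5 times. With 18 peaks, the intervals of the AP-1 and DR1 shares ran from 9.69 to 53.5% and from 6.41 to 47.6%. Searched in the deposited intervals instead of 200 bp, 4 of 18 peaks held AP-1 (22.2%) and 3 of 18 held DR1 (16.7%).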
